A study of Mus musculus with 28 samples.

Results

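Integrin chains, laminin chains and the proteins that tie laminin to the rest of the basement membrane were described across sorted stromal and luminal cells of the mouse mammary gland. The members were taken by gene symbol: every protein-coding Itga gene, Itgb1 to Itgb8, the laminin alpha, beta and gamma chain genes, and Nid1, Nid2, Hspg2, Agrn and Dag1. This gave 42 genes of the 50600 in the count table, of which 27 encode receptor chains and 15 encode matrix ligands.

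A laminin is a cross-shaped trimer of an alpha, a beta and a gamma chain that polymerises into the sheet on which epithelial, muscle and fat cells sit. Nidogens (Nid1, Nid2) bridge laminin to type IV collagen, and the heparan sulphate proteoglycans perlecan (Hspg2) and agrin (Agrn) bind to the same sheet. Cells hold on to it through integrins, which are pairs of an alpha and a beta chain, and through dystroglycan (Dag1). In the mammary gland the basement membrane lies between the epithelial bilayer and the stroma, and integrin contact with laminin is known to support milk protein expression in luminal cells.

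RNA was sequenced from 28 libraries of 7 female C57BL/6 mice aged 10 to 12 weeks that carry PdgfraCre and the R26mTmG reporter. In these mice a cell that has expressed the Pdgfra-driven Cre, and its progeny, turns GFP+, and every other cell stays tdTomato+, so the colour reports past as well as present Pdgfra expression. From each mouse 4 populations were sorted from cells negative for CD31, CD45 and Ter119: GFP+ and tdTomato+ stroma (CD49f- EpCAM-) and GFP+ and tdTomato+ luminal cells (CD49f low EpCAM+). There were 4 untreated mice, and 3 mice were given oestrogen and progesterone (E+P). The methods state pellets of 0.14 mg oestradiol and 14 mg progesterone, released over 14 days, for wild-type mice, and the dose is taken to be the same here. CD49f is the product of Itga6, so the Itga6 difference between stromal and luminal cells was set by the sort and is not a result.

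Total counts ran from 8623383 to 24583803 per library, and 3 counts were worth 0.116 to 0.302 CPM (counts scaled by library size and TMM factors). In the luminal groups all 6 luminal epithelial markers were above 10 CPM, and in GFP+ stroma all 6 fibroblast markers were. The tdTomato+ stroma also had all 6 fibroblast markers above 10 CPM, summing to 1621 to 5665 CPM against 24910 to 54720 CPM in GFP+ stroma. It was a mixture. Its 7 pericyte and smooth muscle markers summed to 5640 to 9251 CPM, its 6 skeletal muscle fibre markers to 2332 to 20580 CPM and its 4 satellite cell markers to 201.2 to 338.5 CPM, against at most 120.6, 16.07 and 1.135 CPM in GFP+ stroma. In the untreated tdTomato+ stroma of mice 2 and 3 the 6 luminal epithelial markers also summed to 284.3 and 454.9 CPM, and values without these libraries are given where they change a call. In sorted bulk RNA, fewer cells of a type and less RNA per cell cannot be told apart.

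**Figure D1:**
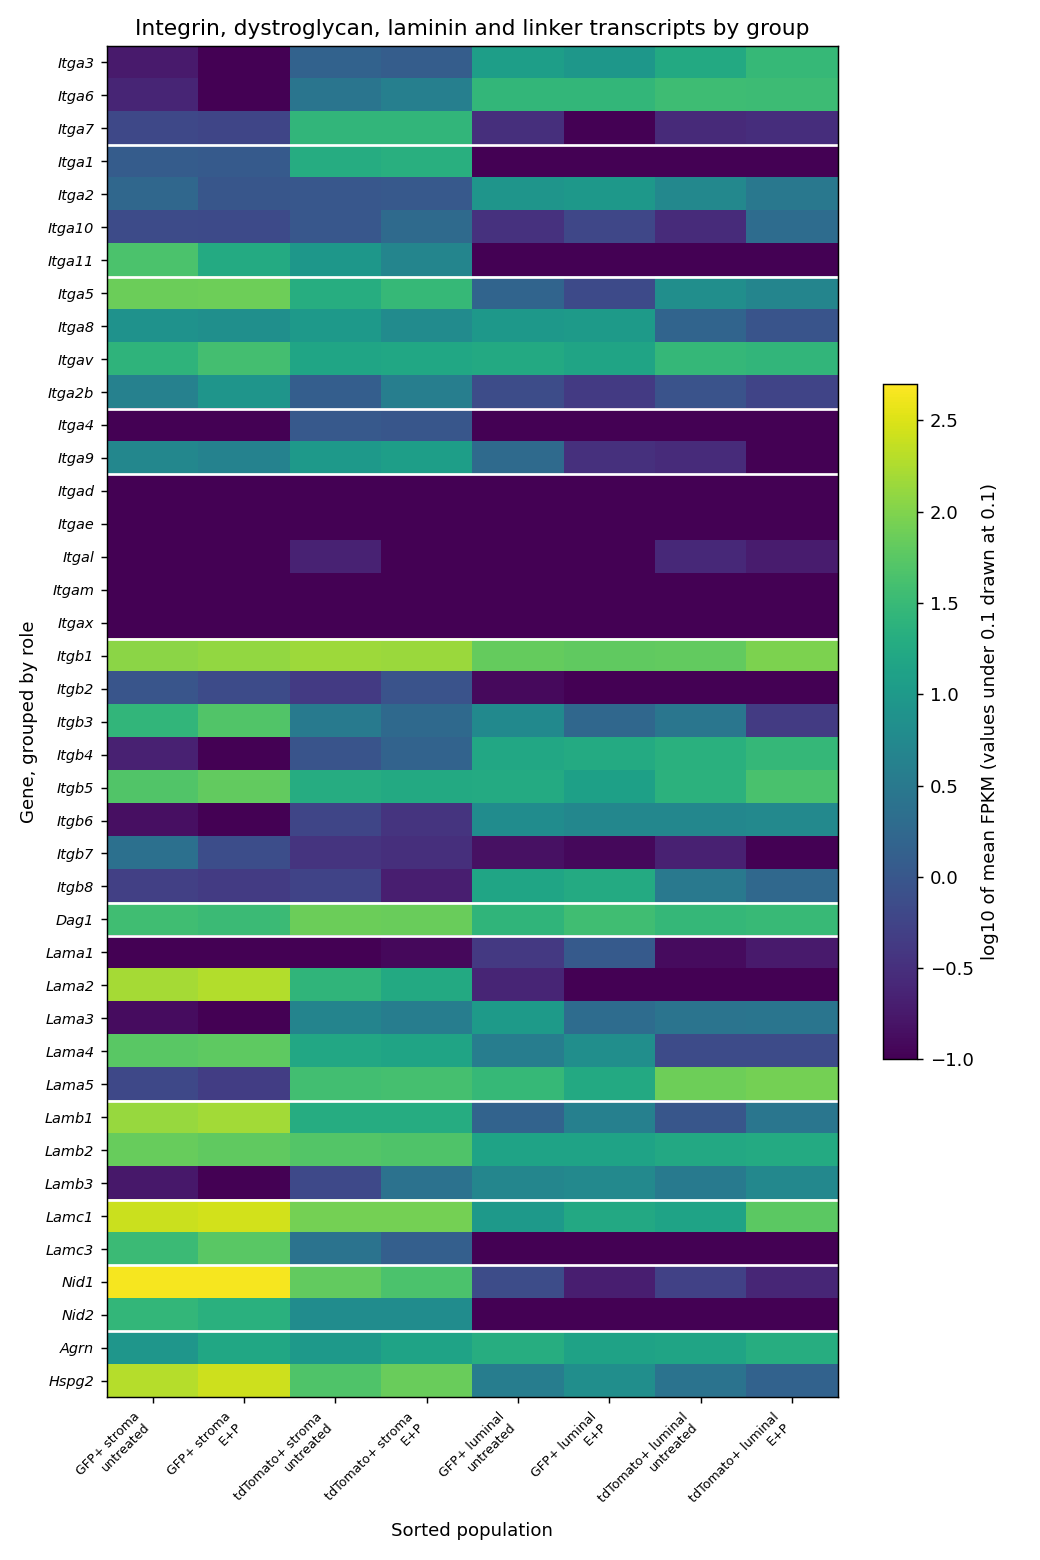
Mean level of 41 members in the 8 sorted groups, as log10 of FPKM (CPM per kilobase of exon), with genes in rows grouped by role and white lines between roles. Nid1, Lamc1 and Hspg2 are brightest in GFP+ stroma, Itga7 and Itga1 in tdTomato+ stroma, and Itga6 and Itgb4 in luminal cells, and the leukocyte alpha chains are dark throughout.

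Stromal and luminal cells were compared first, to ask which of them transcribed which chain. Basal epithelial cells (CD49f high EpCAM+), the outer layer of the epithelium, were not among the sequenced populations. Luminal values therefore do not stand for the whole epithelium. Of the 38 members with enough counts to test, 36 differed at an adjusted p under 0.01 (edgeR quasi-likelihood test, Benjamini-Hochberg over all genes tested), 24 higher in stroma and 12 higher in luminal cells. Across all genes tested 63.5% passed, 33% higher in stroma and 30.5% lower. The median log2 fold change of the members was 1.5, and that of all genes tested was 0.02. The members whose libraries did not overlap between stroma and luminal cells numbered 19, and 14.4% of all genes tested separated in this way.

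The matrix ligands divided by chain. Lama2, the alpha chain of muscle and nerve laminins, ran from 224.4 to 3303 CPM (median 1430) over 14 stromal libraries and from 0 to 7.095 CPM (median 1.029) over 14 luminal libraries (log2 fold change 10.23 ± 0.44 (SE), adjusted p = 2.2e-15 in edgeR). In means, Nid1 stood at 1741 against 3.133 CPM (8.71 ± 0.32), Nid2 at 83.18 against 0.2069 CPM (8.66 ± 0.25), Hspg2 at 2001 against 50.57 CPM (5.21 ± 0.13) and Lamb1 at 802.7 against 21.77 CPM (4.7 ± 0.2). For these ligands every stromal library was above every luminal library. Luminal libraries summed to between 4.076 and 95.65 CPM over the 6 fibroblast markers, and the part of such cells in the low luminal levels of Lama2 and the nidogens was not tested. The chains higher in luminal cells, averaged over the groups, included Lama5 (log2 fold change -3.23 ± 0.2), Lama3 (-2.42 ± 0.25), Lama1 (-2.1 ± 0.49) and Lamb3 (-3.55 ± 0.24). For each of these chains the stromal and luminal libraries overlapped. Lama3 read 0.05279 to 1.743 CPM in GFP+ stroma but 26.98 to 71.57 CPM in tdTomato+ stroma. In tdTomato+ luminal cells it read 17.71 to 49.28 CPM, so it was not higher in the luminal cells of that colour. Lama1 was low, at most 2.668 CPM in stroma and with a luminal median of 2.709 CPM. Lama3 and Lamb3 are chains of the laminin to which hemidesmosomes attach. Agrn was also higher in luminal cells, by a small amount (-0.52 ± 0.08).

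Among receptors, the hemidesmosome partner Itgb4 ran from 98.03 to 235.6 CPM (median 139.4) in luminal and from 0.4541 to 16.75 CPM (median 2.657) in stromal libraries (-5.72 ± 0.26, adjusted p = 3.1e-15 in edgeR). Itga3, a laminin-binding alpha chain, stood at means of 95.85 and 4.313 CPM (-5.31 ± 0.2), Itgb6 at 39.31 and 2.154 CPM (-4.62 ± 0.26) and Itgb8 at 103.8 and 4.878 CPM (-3.95 ± 0.19). Itgb6 and Itgb8 pair with Itgav and are known as activators of latent TGF-beta. Itgav itself was not called, at 0.07 ± 0.11. On the stromal side the collagen receptor chain Itga11 ran from 23.37 to 275.1 CPM (median 65.28), against 0 to 0.8235 CPM (median 0.1487) in luminal cells (9.84 ± 0.28, adjusted p = 2.1e-18). Itgb1, the common partner of most alpha chains, was higher in stroma by 0.87 ± 0.05 and Dag1 by 0.71 ± 0.1. On the FPKM scale, which allows genes to be compared, Itgb1 was the leading beta chain in all 8 groups, with a mean share of 52.1% to 85.7% of the summed beta chain level. The leukocyte chains Itgad, Itgae, Itgam and Itgax were too low to test, with group means of at most 0.4563 CPM, and the group means of Itgal were at most 1.766 CPM.

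Within the stroma, GFP+ cells carried more of Lama2, Lama4, Lamb1, Lamc1, the nidogens and perlecan, and tdTomato+ cells carried more of Lama5 and of the receptor chains Itga7, Itga1, Itga3 and Dag1. Of 38 members tested, 29 differed (16 higher in GFP+, 13 higher in tdTomato+), and 42% of all genes tested did. The ligands were called in 12 of 15 cases, 9 higher and 3 lower in GFP+ cells, and the receptors in 17 of 23, 7 higher and 10 lower. The median log2 fold change was 1.65 for the ligands, -0.23 for the receptors and -0.01 for all genes tested. Groups did not overlap for 23 members, against 26.5% of all genes tested. Without the tdTomato+ stroma of untreated mice 2 and 3 the count called was again 29, with Itgb6 lost (-1.99, adjusted p = 0.018 in edgeR) and Itgal gained (-3.51, adjusted p = 0.0097).

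Nid1 (chr13:13437551-13512269, plus strand, GRCm38) read 3596, 2586, 3585 and 2466 CPM in untreated GFP+ stroma and 666.5, 215.5, 527.1 and 392.2 CPM in untreated tdTomato+ stroma. After E+P it read 3268, 3142 and 2996 CPM against 306.7, 323.6 and 305.7 CPM. Every GFP+ library was above every tdTomato+ library, and the log2 fold change over both treatments was 3.03 ± 0.2 (adjusted p = 5.4e-09 in edgeR).

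Lama2 (chr10:26980036-27619758, minus strand) read 2854, 2461, 2919 and 2275 CPM in untreated GFP+ stroma and 440.6, 327.3, 585.9 and 367.5 CPM in untreated tdTomato+ stroma. With E+P the values were 3303, 3182 and 2781 against 300.2, 224.4 and 334.8 CPM. The groups were apart in both treatments (log2 fold change 3.0 ± 0.14, adjusted p = 2.5e-11). Lamb1 (2.87 ± 0.13), Lamc1 (1.65 ± 0.11), Lama4 (1.91 ± 0.11), Hspg2 (1.9 ± 0.13) and Nid2 (1.99 ± 0.14) were higher in the same direction without overlap. Lamc3, another gamma chain, had a mean of 265.1 CPM in GFP+ and 12.34 CPM in tdTomato+ stroma (4.56 ± 0.3, adjusted p = 3.6e-08).

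Lama5 (chr2:180176373-180225859, minus strand), the alpha chain of vascular and epithelial basement membranes, went the other way. It read 2.952, 12.17, 9.691 and 3.76 CPM in untreated GFP+ stroma and 404, 569.8, 504.1 and 226.6 CPM in untreated tdTomato+ stroma. After E+P it read 6.005, 3.22 and 6.789 against 468.1, 409.8 and 528.3 CPM. No libraries overlapped (-6.19 ± 0.39, adjusted p = 5.7e-08). Lama3 was also lower in GFP+ cells, at a mean of 1.218 against 45.45 CPM (-5.29 ± 0.43), as was Lamb3 (-3.33 ± 0.47).

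As shares of the summed laminin alpha FPKM, Lama2 made up 73.7% ± 2.01 (SD, n = 4) in untreated GFP+ stroma and Lama5 43% ± 9.37 (n = 4) in untreated tdTomato+ stroma. In tdTomato+ luminal cells Lama5 made up 95.5% ± 2.04 (n = 4). With the length of the longest transcript in place of all exons, Lama2 became the leading alpha chain of untreated tdTomato+ stroma, where Lama5 fell to 30.7%. The order of these chains in that group therefore rests on the gene length used.

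**Figure D2:**
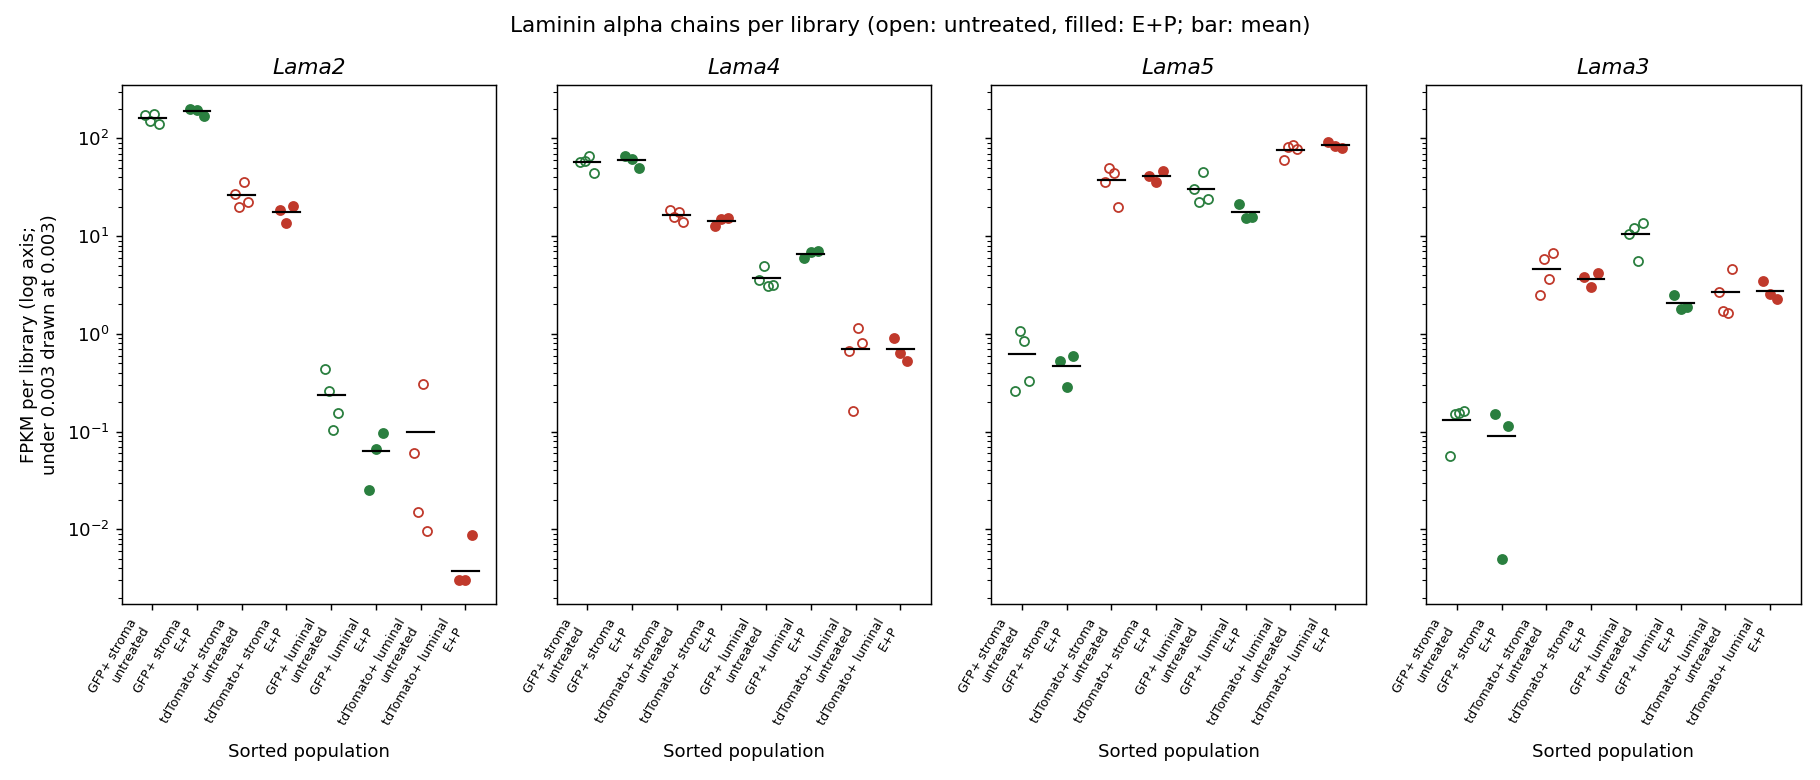
FPKM of 4 laminin alpha chains in each library on a log axis, for the 8 sorted groups; green is GFP+, red is tdTomato+, open circles are untreated and filled circles E+P, and bars are means. Lama2 and Lama4 are highest in GFP+ stroma, and Lama5 and Lama3 are lowest there.

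The receptors of the tdTomato+ stroma included Itga7, the laminin receptor chain of muscle, and Itga1, a collagen receptor chain of smooth muscle and other mesenchymal cells. Itga7 (chr10:128933818-128958282, plus strand) read 220.4, 249.9, 198.6 and 204.5 CPM in untreated tdTomato+ stroma and 7.342, 3.332, 4.51 and 5.044 CPM in untreated GFP+ stroma. After E+P the values were 247.5, 187.8 and 223.4 against 5.275, 4.118 and 4.821 CPM. The tdTomato+ libraries were all higher (-5.5 ± 0.16, adjusted p = 1.1e-13 in edgeR). Over the 7 tdTomato+ stromal libraries Itga7 ran from 187.8 to 249.9 CPM. The skeletal muscle sum ran from 2332 to 20580 CPM in the same libraries, and the pericyte and smooth muscle sum from 5640 to 9251 CPM. The part of each cell type in the level of Itga7 was not tested.

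Itga1 read between 269.7 and 414.7 CPM in the 7 tdTomato+ stromal libraries and between 18.53 and 28.84 CPM in the 7 GFP+ libraries. Itga2, another collagen receptor chain that lies 20995 bases from Itga1 on chromosome 13 and on the same strand, read 3.47 to 13.15 and 5.807 to 20.05 CPM, ranges that overlapped, and was not called. In luminal cells the pair stood in the opposite order, with Itga1 at 3.614 CPM or less and Itga2 at 13.54 CPM or more. Itga4, a receptor chain for fibronectin and VCAM1, had 1513 counts over the tdTomato+ libraries and 24 over the GFP+ libraries (-5.95 ± 0.66). Dag1 was also lower in GFP+ stroma, at a mean of 223.4 against 459.7 CPM (-1.07 ± 0.17, adjusted p = 7.3e-05).

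The receptor chains higher in GFP+ stroma included ones known to bind vitronectin, fibronectin and fibrillar collagen, besides Itga2b (1.41 ± 0.28) and Itgb7 (1.93 ± 0.4). Itgb3, the partner of Itgav in the vitronectin receptor, read 165, 130.8, 196.9 and 151.8 CPM in untreated GFP+ stroma and 35.53, 6.769, 21.7 and 11.56 CPM in untreated tdTomato+ stroma. With E+P it read 333.4, 277.9 and 266 against 10.41, 10.87 and 11.38 CPM. No libraries overlapped (3.91 ± 0.31, adjusted p = 2.7e-07 in edgeR). Itgb5 (1.57 ± 0.09) and Itgav (1.03 ± 0.13) were also higher, and Itga5, the fibronectin receptor chain, averaged 360 CPM in the GFP+ and 99.37 CPM in the tdTomato+ stroma of untreated mice. Itga11 led the collagen-binding chains of GFP+ stroma, with 92.2% ± 3.47 (SD, n = 4) of their summed FPKM in untreated mice, and Itga1 led those of tdTomato+ stroma with 63.3% ± 7.39 (n = 4). Itgb1 was within a narrow range in all 14 stromal libraries, 435.8 to 627.6 CPM, and was not called (-0.23 ± 0.08, adjusted p = 0.018). With scaling by library size or by DESeq2 size factors, or with DESeq2 or limma voom, it was called lower in GFP+ cells.

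The rest of the pathway was read from lists of related genes, beside 42% of all genes tested that differed between the stromal subsets, 20.6% higher and 21.3% lower in GFP+ cells. Of 26 other basement membrane and integrin ligand genes, 25 were tested and 21 differed between the stromal subsets, 14 higher and 7 lower in GFP+ cells, with fibronectin (Fn1) at a mean of 12510 against 704.4 CPM. Of 28 tested adaptors on the cytoplasmic side of integrins, 19 differed, 5 higher and 14 lower, with a median log2 fold change of -0.7; Parvb (-3.89) and Tln2 (-2.34) were among those lower. Of 19 genes of the dystroglycan complex 15 differed, 8 higher and 7 lower. Dystrophin (Dmd), which ties dystroglycan to actin, had a mean of 31.71 CPM in GFP+ and 762.7 CPM in tdTomato+ stroma, while Sgce (1.78) and Sgcd (1.22) were higher in GFP+ cells. Among 9 laminin receptors and hemidesmosome genes that are not integrins 6 differed, 1 higher and 5 lower, including the Lama5 receptor Bcam at 1.149 against 51.43 CPM.

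The same GFP+ against tdTomato+ comparison was then made in luminal cells. Of 33 members tested, 16 differed (6 higher and 10 lower in GFP+ cells), where 34.7% of all genes tested did. With the mouse as a block the count was 21, with Itga6, Itgb3, Lama1, Lama3 and Lamb2 added. Groups did not overlap for 7 members, against 12% of all genes tested.

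Itgb8 (chr12:119158022-119238802, minus strand) read 130.5, 214.8, 134.4 and 177.1 CPM in untreated GFP+ luminal cells and 30.45, 18.25, 36.14 and 52.11 CPM in untreated tdTomato+ luminal cells. After E+P it read 169, 184.4 and 247.6 against 20.67, 24.15 and 14.03 CPM. All GFP+ libraries were higher (2.78 ± 0.23, adjusted p = 2.7e-06 in edgeR). Itga8, which shares ligands such as nephronectin with the alpha-v integrins, was higher by 3.01 ± 0.26 and Lama4 by 2.81 ± 0.32, both without overlap. Hspg2 (1.32 ± 0.17), Itga2 (1.14 ± 0.22) and Itga9 (3.18 ± 0.68) were also higher, with overlapping libraries. Itga9 read 17.42, 32.71, 5.997 and 2.043 CPM in untreated GFP+ cells and at most 3.579 CPM in the other luminal libraries. Its call was lost with limma voom (2.99) and without E+P mouse 2 (2.84). Markers of other cell types differed between the GFP+ and tdTomato+ luminal cells. The fibroblast markers summed to means of 59.41 CPM in GFP+ and 22.39 CPM in tdTomato+ luminal cells of untreated mice, and to 20.23 and 6.617 CPM with E+P. The Schwann cell markers summed to 265.5 and 121.1 CPM untreated and 227.8 and 51.32 CPM with E+P, mainly through Sox10 (181.3 and 41.21 CPM untreated) and Mbp (79.77 and 75.83 CPM untreated). Of these 5 markers only 2 were above 10 CPM in each luminal group and 2 were under 1 CPM. S100b had no counts in tdTomato+ luminal cells. The endothelial markers, through Vwf, were lower in GFP+ cells, at 12.94 and 61.39 CPM untreated and 16.04 and 227.4 CPM with E+P. Whether these transcripts came from other cell types, and the part of such cells in the differences between luminal subsets, were not tested.

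Lama5 read 347.8, 252.2, 519.7 and 272.5 CPM in untreated GFP+ luminal cells and 683.4, 940.8, 966.3 and 894.6 CPM in untreated tdTomato+ luminal cells. After E+P it read 245.5, 174.2 and 180 against 1049, 951.7 and 907 CPM. The tdTomato+ libraries were all higher (-1.83 ± 0.16, adjusted p = 2.2e-06). Itga5 (-2.49 ± 0.29), Itga3 (-1.15 ± 0.08) and Itgb4 (-0.61 ± 0.08) were lower in GFP+ luminal cells without overlap. The Itgb4 call was lost in a fit of all 28 libraries (-0.58, adjusted p = 0.11 in edgeR). Averaged over both treatments, Lamc1 (-1.17 ± 0.13), Itgb5 (-1.13 ± 0.11), Itgav (-0.82 ± 0.16) and Itgb1 (-0.31 ± 0.07) were lower with overlapping libraries. Mean Itgb1 was 273.6 CPM in GFP+ and 268.1 CPM in tdTomato+ cells untreated, and 252.2 and 383.7 CPM with E+P. Untreated Itgb1 was thus not lower in GFP+ cells. Mean Lamc1 was 80.04 and 114.8 CPM untreated, and 143.4 and 489 CPM with E+P. The Itgb1 call was lost without any 1 of the E+P mice, without untreated mouse 4 (-0.26) and with scaling by library size alone (-0.17). Dag1 was 196.2 and 191.3 CPM on average and was not called (0.02 ± 0.09).

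The 2 subset differences were set against each other in a test of lineage by subset. It called 24 of 38 members, against 33.2% of all genes tested. Itga5 differed by 4.06 ± 0.31 (adjusted p = 2.3e-10 in edgeR), being higher in GFP+ stroma and lower in GFP+ luminal cells, and Itgb5 (2.69 ± 0.14), Itgav (1.83 ± 0.21) and Lamc1 (2.81 ± 0.18) had the same crossing. Lama3 differed by -6.04 ± 0.5, with a log2 fold change of -5.29 in stroma and 0.74 in luminal cells, and Itga7 by -4.73 ± 0.35, with -5.5 and -0.79. Hspg2 was higher in the GFP+ cells of both lineages and was not called in this test (0.57 ± 0.21, adjusted p = 0.034), though without the untreated tdTomato+ stroma of mice 2 and 3, or without untreated mouse 4, it was (0.72 and 0.58). Itgb3 was called (2.45 ± 0.7, adjusted p = 0.0065 in edgeR), and the call was lost without the untreated tdTomato+ stroma of mice 2 and 3 (2.31), without E+P mouse 1, 2 or 3 (2.31, 2.52 and 2.53), with scaling by library size alone (2.28) and with no filter on low counts (2.51). Lamc3 was called (4.14 ± 1.23, adjusted p = 0.0083), but its luminal level was at most 0.4026 CPM in any library, and the call was lost when untreated mouse 2, 3 or 4 or E+P mouse 1 was left out (4.41, 3.73, 4.08 and 3.78), with scaling by library size alone (3.93) and with no filter on low counts (4.19).

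**Figure D3:**
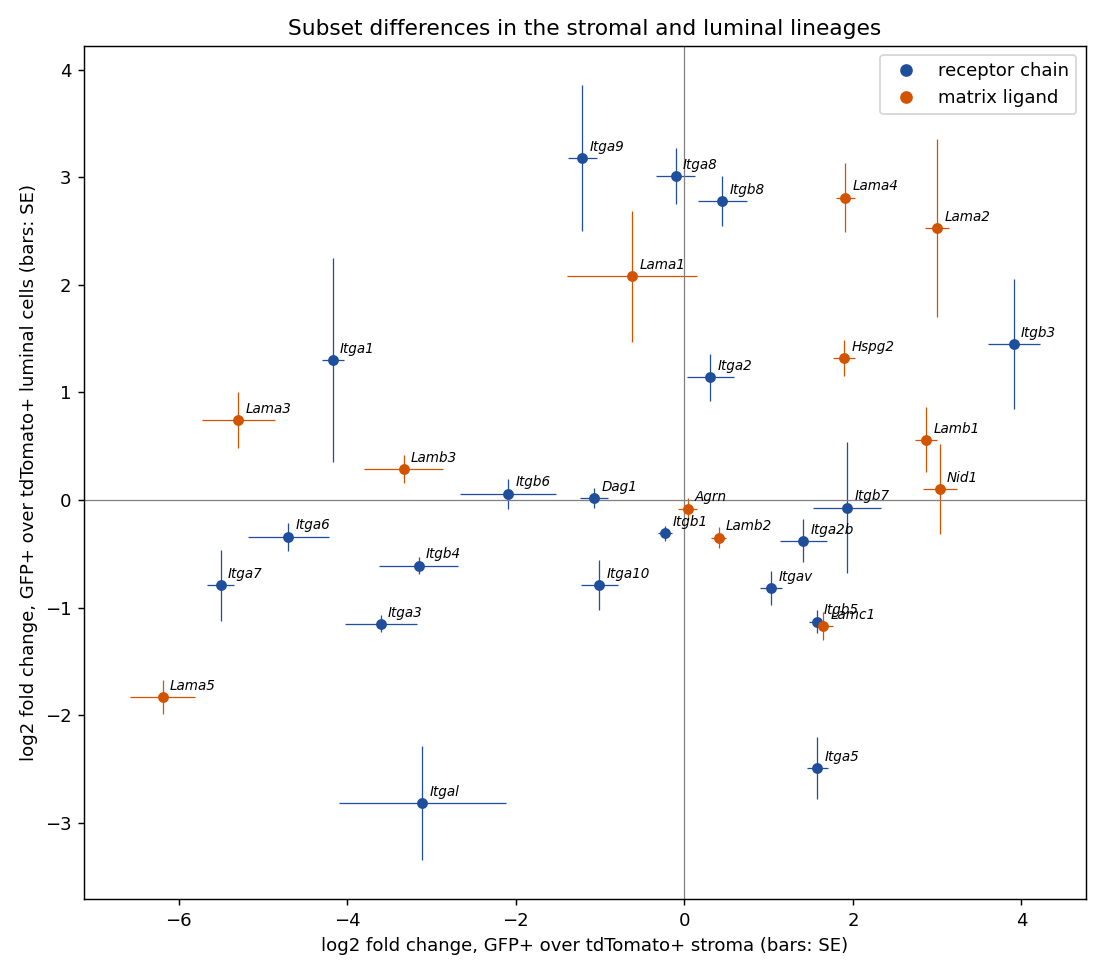
Log2 fold change of GFP+ over tdTomato+ cells in stroma (horizontal axis) and in luminal cells (vertical axis) for 32 members tested in both lineages, with standard errors as bars; blue points are receptor chains and orange points matrix ligands. Itga5, Itgb5, Itgav and Lamc1 lie to the right and below 0, and Lama4, Hspg2, Lama2 and Itgb3 lie to the right and above.

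E+P was then compared with no treatment in each population. In tdTomato+ luminal cells Lamc1, Lamb3 and several receptor chains were higher with E+P. There 7 of 33 members were called, all higher with E+P, against 14.1% of all genes tested (7.63% called higher and 6.44% lower). They included Lamc1, Lamb3, Itga10, Itga3, Itgb1 and Itgb5. Groups did not overlap for 14 members, against 35.9% of all genes tested, and the median log2 change was 0.08 for the members and -0.05 for all genes tested.

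Lamc1 (chr1:153218922-153332786, minus strand), the gamma chain of most laminins, read 72.1, 126.1, 106 and 155.2 CPM in untreated and 487.6, 496.5 and 482.8 CPM in E+P tdTomato+ luminal cells. Every E+P library was above every untreated one (log2 fold change 2.12 ± 0.18, adjusted p = 3.9e-06 in edgeR). Lamb3 rose less, from 21.7 ± 1.683 (SD, n = 4) to 35.79 ± 9.128 CPM (n = 3; 0.75 ± 0.18, adjusted p = 0.007). Lama3, an alpha chain of epithelial basement membranes, was 28.58 ± 14.72 and 29.78 ± 6.702 CPM and was not called (0.08 ± 0.36).

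Among receptors of the tdTomato+ luminal cells, Itga3 read 96, 107.1, 106 and 91.51 CPM untreated and 141.9, 191.7 and 176.5 CPM with E+P (0.79 ± 0.11, adjusted p = 0.00023). Itga10, a collagen receptor chain of cartilage, read 2.065, 1.582, 1.084 and 1.28 CPM untreated and 11.06, 13.38 and 7.513 CPM with E+P (2.84 ± 0.33, adjusted p = 5e-05). The groups were apart for both. Itga10 shares 1739 exon bases on its strand with the gene model Gm42957, so its reads may be split between them. Itgb5 rose by 0.86 ± 0.16 (adjusted p = 0.0013) and Itgb1 by 0.54 ± 0.1 (adjusted p = 0.0019), from 263.7, 260.2, 246.3 and 302.1 CPM to 377.9, 376.8 and 396.5 CPM for Itgb1. Itga6 (-0.02 ± 0.18), Itgav (-0.05 ± 0.22) and Lama5 (0.18 ± 0.22) were not called. Scaled by library size alone, which shifts the median of all genes to -0.27, Itgb1 (0.32) and Lamb3 were not called and Hspg2 was called lower (-1.02). Lamc1, Itga3 and Itga10 were called without each mouse in turn, whereas Itgb1 was lost without any 1 of the E+P mice, Itgb5 without E+P mouse 2 or 3, and Lamb3 without untreated mouse 1, 2 or 3 or E+P mouse 1 or 2.

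Basal cell markers moved with treatment in the same libraries. The 4 markers summed to 4.697 to 8.957 CPM untreated and 31.63 to 50.23 CPM with E+P in tdTomato+ luminal cells, mainly through Trp63 (1.15 to 22.16 CPM) and Krt17 (2.558 to 13.25 CPM), while Krt5 stayed under 1 CPM and Krt14 was 1.975 and 2.202 CPM. The 5 endothelial markers summed to 31.07 to 133 CPM untreated and 219.5 to 240.5 CPM with E+P, through Vwf (58.81 and 226 CPM), while Pecam1, Cdh5, Tie1 and Emcn each had a mean of at most 1.68 CPM. The 5 Schwann cell markers summed to 108.5 to 129.4 and 41.99 to 61.5 CPM, with only 2 of them above 10 CPM and 2 under 1 CPM in either group. The part of any of these cells in the rise of the laminin and integrin chains was not tested.

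RefSeq promoter windows (GRCm38.p6) were matched for 27 of the 42 members. The 250 bases before the start are shown for 3 receptor genes that rose together in E+P tdTomato+ luminal cells, so that their composition can be compared. Capitals mark matches, on either strand, to AGAACA (a half-site of the progesterone receptor) or GGGCGG (the GC box of Sp1); AGGTCA (a half-site of the oestrogen receptor) and TGANTCA (AP-1) were searched too. The windows are chr3:96645334-96645583, plus strand, for Itga10, chr8:128685404-128685653, plus strand, for Itgb1 and chr16:33829415-33829664, plus strand, for Itgb5.
Itga10: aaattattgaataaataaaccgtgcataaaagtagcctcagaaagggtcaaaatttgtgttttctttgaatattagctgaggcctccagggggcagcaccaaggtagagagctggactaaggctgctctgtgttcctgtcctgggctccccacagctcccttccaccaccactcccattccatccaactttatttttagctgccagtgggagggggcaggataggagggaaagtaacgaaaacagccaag
Itgb1: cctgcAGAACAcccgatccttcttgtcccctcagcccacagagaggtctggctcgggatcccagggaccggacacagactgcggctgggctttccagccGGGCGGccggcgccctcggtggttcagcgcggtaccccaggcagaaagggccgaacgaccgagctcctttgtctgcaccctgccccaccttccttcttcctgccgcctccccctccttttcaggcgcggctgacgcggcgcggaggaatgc
Itgb5: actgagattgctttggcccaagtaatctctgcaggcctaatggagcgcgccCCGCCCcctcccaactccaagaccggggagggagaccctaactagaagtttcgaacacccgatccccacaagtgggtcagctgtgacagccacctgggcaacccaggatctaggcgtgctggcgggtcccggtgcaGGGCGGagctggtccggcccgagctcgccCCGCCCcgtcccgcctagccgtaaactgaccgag
The Itga10 window held none of the 4 motifs and was 48% G and C, Itgb1 held 1 AGAACA and 1 GGGCGG at 68%, and Itgb5 held 3 GGGCGG matches at 65.2%. Of 27025 windows of the same length in RefSeq, 16.1% held AGAACA, 13.8% AGGTCA, 6.85% TGANTCA and 33% GGGCGG. Of the 27 members with a window, 5 held AGAACA, 0 AGGTCA, 1 TGANTCA and 12 GGGCGG. A match is a run of letters and not a measured binding site.

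In GFP+ luminal cells 2 of 33 members were called with E+P, against 5.96% of all genes tested (3.17% higher and 2.78% lower). Lama3 read 113.5, 129.7, 59.22 and 144.9 CPM untreated and 26.71, 19.27 and 20.35 CPM with E+P, without overlap (-2.34 ± 0.39, adjusted p = 0.0026 in edgeR). Lamc1 read 78.68, 77.6, 85.15 and 78.75 CPM untreated and 165.2, 135.6 and 129.2 CPM with E+P, again without overlap (0.84 ± 0.18, adjusted p = 0.0072). Either call was lost when any of the 3 E+P mice was left out, with Lama3 at -2.52, -2.24 and -2.26 and Lamc1 at 0.7, 0.89 and 0.94 without E+P mouse 1, 2 and 3. Lama3 was also lost without untreated mouse 1 (-2.34), and Lamc1 without untreated mouse 2 or 3 (0.82 and 0.87) or with scaling by library size (0.73). The fibroblast markers in these cells summed to 33.16 to 95.65 CPM untreated and 19.58 to 20.83 CPM with E+P, and the basal markers to 13.02 to 19.42 and 28.48 to 43.62 CPM. Their part in these changes was not tested.

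The hormone changes of the luminal subsets were compared by a test of subset by treatment. It called 5 of 33 members, all with a lower E+P change in GFP+ cells, against 2.27% of all genes tested (1.49% in that direction). Itga3 differed by -1.17 ± 0.16 (adjusted p = 0.00094 in edgeR), Itgb5 by -1.38 ± 0.22, Lamc1 by -1.28 ± 0.26 and Agrn by -1.07 ± 0.21. Agrn read 199, 182.4, 183.9 and 176.4 CPM untreated and 129.9, 131 and 116.2 CPM with E+P in GFP+ luminal cells, against 126, 103.6, 132.1 and 175.7 and 205.7, 196 and 159.4 CPM in tdTomato+ cells. Its groups were apart in the GFP+ subset and overlapped in the tdTomato+ subset. None of the 5 was called without E+P mouse 2 or without E+P mouse 3, and 2 to 7 members were called when another mouse was left out. With the mouse as a block 7 were called, Hspg2 (1.69) and Lama3 being added. In a fit of all 28 libraries 6 were called. There Itga3 was lost (-1.14 ± 0.42, adjusted p = 0.14 in edgeR), and Hspg2 (1.65) and Itgb1 (-0.63) were added. Scaled by library size alone, Lamc1 (-1.17) and Agrn (-0.95) were lost and Hspg2 (1.75) was added.

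**Figure D4:**
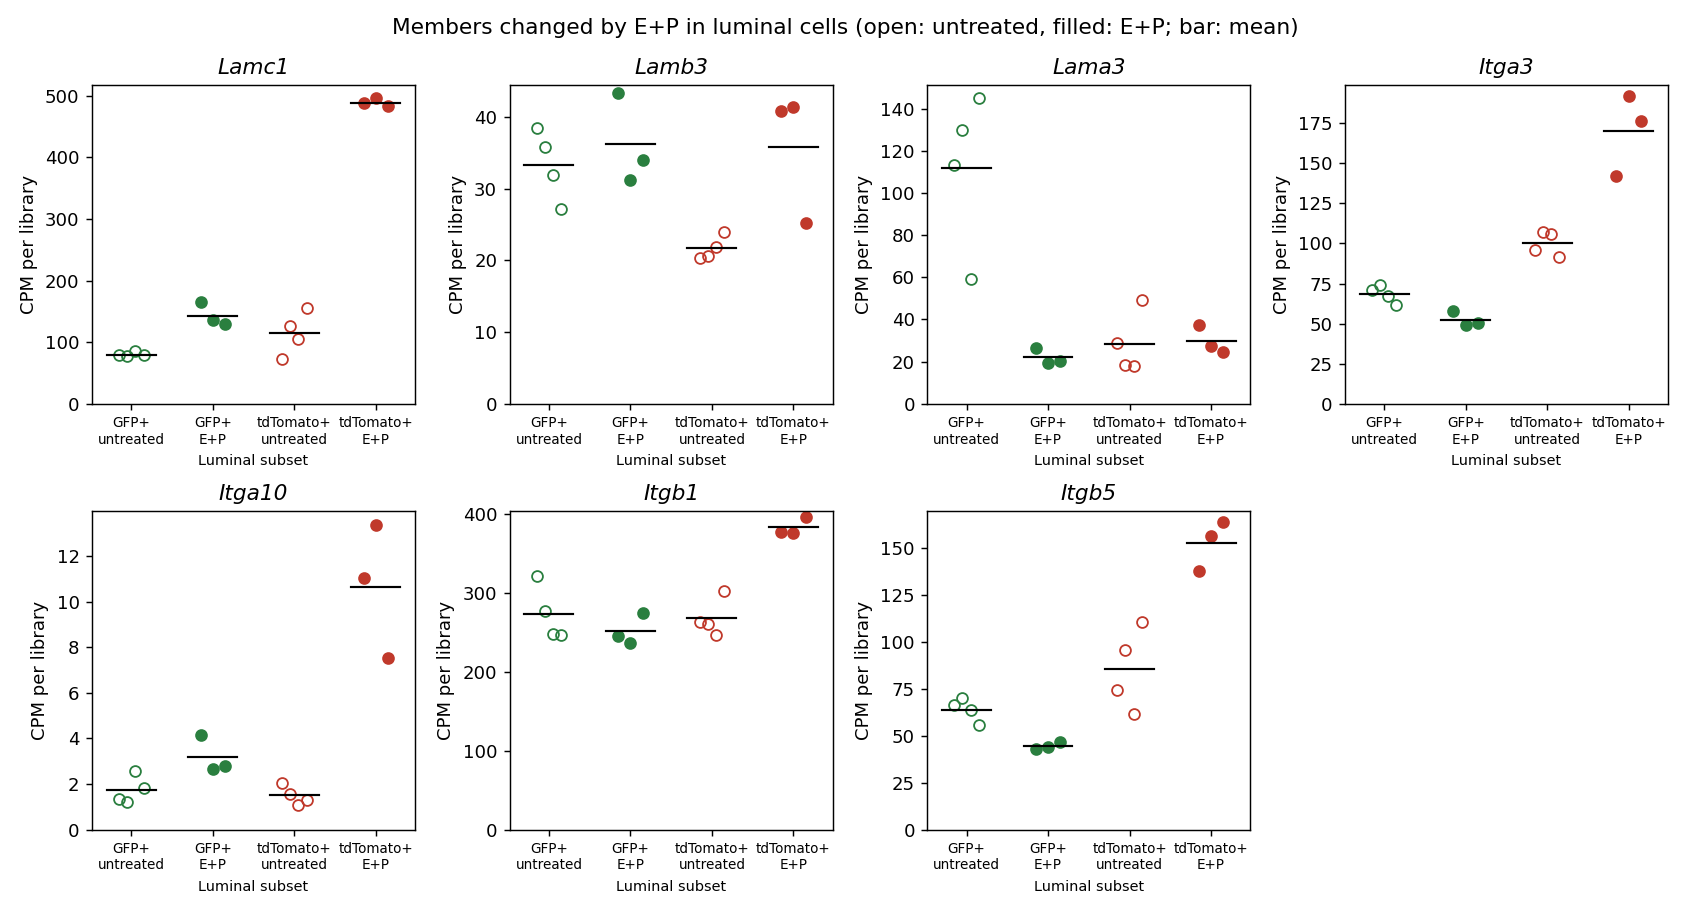
CPM per library in the 4 luminal groups for 7 members called with E+P in at least 1 luminal subset; green is GFP+, red is tdTomato+, open circles are untreated, filled circles E+P, and bars are means. Lamc1 reaches 482.8 to 496.5 CPM in E+P tdTomato+ cells, and Lama3 falls to 19.27 to 26.71 CPM in E+P GFP+ cells.

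The wider lists were read beside the 14.1% of all genes tested that were called with E+P in tdTomato+ and the 5.96% in GFP+ luminal cells. In tdTomato+ luminal cells 3 of 26 tested adaptors were called, 2 higher and 1 lower, with Ilk, which binds beta chain tails, higher by 1.19. Of the 9 laminin receptors and hemidesmosome genes that are not integrins 4 were called, 3 higher and 1 lower: Bcam rose from 55.96 to 110.3 CPM on average and Dst, a plakin linker of hemidesmosomes, fell from 2870 to 1273 CPM. Of 16 tested genes of the dystroglycan complex 4 were called, 2 higher and 2 lower, including Pomt1 (1.45), which glycosylates dystroglycan, higher and the syntrophin Sntb2 (-1.2) lower. Of 23 tested genes of other basement membrane and integrin ligand matrix 4 were called, 2 higher and 2 lower. Tnxb, a tenascin, rose from 4.025 to 504.9 CPM and Pxdn, which cross-links type IV collagen, from 62.17 to 237.7 CPM, while the type IV collagen chains Col4a6 and Col4a5 fell from 57.75 to 13.69 and from 88.36 to 36.64 CPM. In GFP+ luminal cells 2 adaptors (0 higher and 2 lower), 4 laminin receptors and hemidesmosome genes (1 higher and 3 lower), 1 dystroglycan complex gene (lower) and 2 other matrix genes (1 higher and 1 lower) were called. Dst fell there as well, from 1558 to 496.3 CPM, and Bcam fell from 84.59 to 43.52 CPM. Ntn4, a laminin-related matrix protein, fell from 60.83 to 5.351 CPM in these cells.

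In stroma few of these genes were called with E+P. In GFP+ stroma the count was 1 of 38 members, against 0.231% of all genes tested (0.0675% called lower). Itga11 (chr9:62677826-62783982, plus strand) read 267.3, 211.5, 176.8 and 275.1 CPM untreated and 84.64, 76.7 and 122.4 CPM with E+P, so that the groups were apart (-1.29 ± 0.18, adjusted p = 0.0018 in edgeR). The call was lost without E+P mouse 1 or 2, at -1.21 and -1.17. In tdTomato+ stroma 0 of 38 members were called by edgeR, against 0.124% of all genes tested (0.0281% higher and 0.0956% lower). An unadjusted p under 0.05 was found for 11 members, DESeq2 called 2 (Itga11 and Itga2b) and limma voom called 0. The shares of all genes under these other criteria were not counted, so no excess among the members can be read from them. Itga11 again had the smallest p in the edgeR test of tdTomato+ stroma. It read 53.86, 40.07, 52.1 and 40.3 CPM untreated and 26.44, 23.37 and 25.08 CPM with E+P (-0.9 ± 0.18, adjusted p = 0.033). The difference of its change between the subsets was not called (-0.39 ± 0.25, adjusted p = 0.65 in edgeR). The fibroblast markers of the same tdTomato+ libraries summed to 4176, 2164, 5665 and 2460 CPM untreated and 2039, 1621 and 2007 CPM with E+P, and those of GFP+ stroma to 24910 to 54720 CPM untreated and 43530 to 54720 CPM with E+P. Their part in the Itga11 values was not tested. Itga2b, next in order, was 6.902 ± 2.383 (SD, n = 4) and 21 ± 11.52 CPM (n = 3; 1.61 ± 0.4, adjusted p = 0.073). The platelet markers Pf4, Gp9 and Gp1bb summed to at most 1.261 CPM in these libraries.

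The main laminins of the stroma were not called with E+P. In GFP+ stroma the log2 changes were 0.24 ± 0.18 for Lama2, 0.17 ± 0.17 for Lamb1, 0.17 ± 0.15 for Lamc1 and 0.04 ± 0.26 for Nid1. Hspg2 was 2728 ± 244.2 CPM (SD, n = 4) untreated and 3744 ± 436.3 CPM (n = 3) with E+P, without overlap, and did not pass (0.47 ± 0.17, adjusted p = 0.38). The test of subset by treatment in stroma called 0 of 38 members by edgeR, where 0.045% of all genes tested passed. An unadjusted p under 0.05 was found for 10 members, and DESeq2 and limma voom called 0. The share of all genes at that unadjusted p was not counted either. The smallest p were those of Lama2 (0.82 ± 0.26, adjusted p = 0.26) and Lamc3 (1.73 ± 0.52, adjusted p = 0.26).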

How the data were processed

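RNA was measured in 28 sorted populations by stranded total RNA sequencing from 2 ng, with 15 PCR cycles and no molecular identifiers. The methods report a wide range of RNA quality and a fragmentation time changed for lower quality RNA. The quality of each library is not given in the sources used here, so its part in differences between groups was not tested. The authors aligned reads with STAR 2.5.2a to GRCm38.p5 and deposited raw counts per gene; the annotation release and strand setting of the counting are not given in the sources used here. Symbols, positions and exon lengths came from GENCODE M21, in which 50376 of 50600 gene identifiers were found. Groups came from the sample titles.

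Counts were analysed in R 4.3.3 with edgeR 4.0.16: filterByExpr, TMM scaling and the robust quasi-likelihood F test, two-sided, with Benjamini-Hochberg adjustment over all genes tested and a threshold of 0.01. CPM are TMM-scaled, and FPKM are CPM per kilobase of exon union. Stromal and luminal libraries were fitted apart for comparisons within a lineage, and all 28 together for those across lineages. Steps were tested on simulated data. DESeq2 1.42.0, limma 3.58.1 voom, other scalings, no filter, blocks and each mouse left out were alternatives.

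Each mouse gave 4 libraries, so same-numbered libraries of 1 treatment share an animal. Their deviations correlated at 0.101 on average between stromal subsets and 0.198 between luminal subsets, against -0.0398 and -0.0756 for different mice; numbers are not shared across treatments. Members given in full were, for lineage and subset, up to 5 in each direction with the largest called changes, at least 10 CPM in the higher side and the same side in every mouse, and, for hormone and interaction tests, up to 3 in each direction, or the 2 with the smallest p where none was called; Itgb1, Dag1, Lamc1, Lamb1, Nid1 and Hspg2 were always tested and tabulated. Other members and the pathway genes outside a like rule were named after their values were seen. The values of 1 member and of some list genes are not reported here, though they stay in the counts. The members and lists were chosen with earlier results of these data known. The CPM worth of 3 counts covers counting error only. Each ± value is a standard error or, where n is given with it, an SD across mice. The standard errors are approximate, being the size of the log2 fold change divided by the square root of its F statistic. No column was left unmapped.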

Additional observations from a re-analysis of the deposited data

Results flagged for a closer look

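Of 89 groups of 4 libraries tested, 4 had 1 library far from the others, where chance gives about 1 in 20 groups. Hspg2 read 81.18 CPM in GFP+ luminal cells of untreated mouse 4, against 41.26 to 46.72 CPM in the other mice. Itga2 read 36.49 CPM in GFP+ luminal cells of untreated mouse 3, against 66.58 to 71.16 CPM. Itga9 read 50.71 CPM in GFP+ stroma of untreated mouse 3, against 35.95 to 37.97 CPM. Lamc1 read 85.15 CPM in GFP+ luminal cells of untreated mouse 3, against 77.6 to 78.75 CPM.

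The GFP+ against tdTomato+ difference in stroma minus that in luminal cells passed the test for 24 members (edgeR). Positive log2 differences included those of Itga5 (4.06), Itgav (1.83), Itga2b (1.79), Itgb3 (2.45), Itgb5 (2.69), Lamb1 (2.3), Lamb2 (0.74), Lamc1 (2.81), Lamc3 (4.14) and Nid1 (2.92). Negative ones were found for Itga1 (-5.46), Itga3 (-2.49), Itga6 (-4.4), Itga7 (-4.73), Itga8 (-3.13), Itga9 (-4.39), Itgb4 (-2.57), Itgb6 (-2.18), Itgb8 (-2.32), Dag1 (-1.09), Lama3 (-6.04), Lama5 (-4.37) and Lamb3 (-3.65). The Itgb3 call was lost without the tdTomato+ stroma of untreated mice 2 and 3 (2.31) and without each of the E+P mice. Itga6 is the gene of the sorting antigen CD49f.

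The E+P change in GFP+ minus that in tdTomato+ luminal cells passed for members that included Itgb5 (-1.38), Lamc1 (-1.28), Itga3 (-1.17) and Agrn (-1.07).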

How the results depend on the processing

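Among the members given in full or always tabulated, no result that was called in either run changed sign in an alternative run. Some results that were not called did, such as Nid1 between luminal subsets (-0.25 to 0.58). At an adjusted p of 0.05 the members called with E+P numbered 2 in GFP+ stroma, 1 in tdTomato+ stroma, 10 in GFP+ and 13 in tdTomato+ luminal cells, and 9 in the luminal test of subset by treatment. The DESeq2 Wald test called 2, 2, 9, 14 and 9. With no filter on low counts 7 were called with E+P in GFP+ stroma, 6 in tdTomato+ stroma and 4 in the stromal test of subset by treatment. A fit of only the groups compared called 4 in GFP+ stroma. A fit of all 28 libraries called 29 between stromal subsets, 17 between luminal subsets, and 0 and 6 for subset by treatment in stroma and luminal cells. The share of all genes called was not counted for the alternative runs or for the 0.05 threshold. A change in these counts is therefore not a result about the members. Scaling by library size called 1 with E+P in GFP+ luminal cells, and moved the share of all calls that were higher from 51.9% to 38.8% between stroma and luminal cells, from 45.3% to 60.8% between luminal subsets, from 53.3% to 36% and from 54.2% to 25.2% with E+P in GFP+ and tdTomato+ luminal cells, from 49% to 37.6% for lineage by subset and from 34.6% to 55.2% for subset by treatment in luminal cells. The causes were not tested. Leaving out 1 mouse gave 36 members called between lineages, 28 to 29 between stromal subsets, 14 to 18 between luminal subsets, 22 to 25 for lineage by subset, 0 to 7 for subset by treatment in luminal cells and 0 in stroma, and with E+P 0 to 2 in GFP+ stroma, 0 in tdTomato+ stroma, 0 to 4 in GFP+ and 4 to 10 in tdTomato+ luminal cells. The mouse as a block gave 36, 29, 21, 25, 0 and 7 for lineage, stromal subsets, luminal subsets, lineage by subset and subset by treatment in stroma and luminal cells. A block on the replicate number, which joins different mice, gave 1, 0, 3 and 6 with E+P in GFP+ stroma, tdTomato+ stroma, GFP+ luminal and tdTomato+ luminal cells. Leaving out the tdTomato+ stroma of untreated mice 2 and 3, chosen after seeing the data, gave 36, 29, 24 and 0 for lineage, stromal subsets, lineage by subset and E+P in tdTomato+ stroma.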
